A study of Caenorhabditis elegans with 2 samples.

Results

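The genes described here are the FMRFamide-like neuropeptide genes of Caenorhabditis elegans, taken as every row of the expression tables whose name is flp followed by a number. There were 31 of them among 41560 gene names (flp-1 to flp-28, flp-32, flp-33 and flp-34), each with 1 row per table, and all 31 names matched a protein-coding gene on the same chromosome in the RefSeq table of assembly WBcel235. They were read in 2 seCLIP-seq libraries. This assay crosslinks RNA to a protein, pulls the protein down and sequences the RNA that comes with it from a single end. The protein was CAR-1, the worm's LSm14 protein, which binds RNA and works in mRNA decay and translational control. It was recovered with GFP-trap, beads that carry an anti-GFP single-domain antibody. The form labelled CAR-1(FL) came from strain CZ25180 and the form labelled CAR-1(dSm) from strain CZ26430, with 1 library each, and both libraries are called FL and dSm below. The sources used here do not say what dSm removes, which promoter drives each form, how old the worms were or what else both strains carry. No input library was used here, so more RNA present and more RNA pulled down cannot be told apart.

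Each flp gene encodes a precursor protein that is cut into short peptides ending in arginine and phenylalanine with an amide group. The peptides are made mostly in neurons, loaded into dense-core vesicles and sensed by G protein-coupled receptors on other cells. In the worm the family takes part in locomotion, sleep, egg laying, feeding and mating.

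Library totals recovered from the authors' peak folds and p-values were 4022150 reads in FL and 5470606 reads in dSm. dSm was thus 1.36 times as deep, and the authors' log2 folds are scaled for that. The fold of a peak compares its reads in both libraries, whichever library the peak was called in. With 1 library per form there is no replicate. The 95% intervals on folds below are exact binomial intervals that cover counting error only, and differences describe these libraries.

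RNA of flp genes was recovered more with dSm, across nearly the whole family. In such bulk samples fewer cells of a type and less RNA per cell cannot be told apart. Of all 41560 gene names, 12876 had a peak in the dSm list, counting only loci of at most 100000 bases. The dSm list held 148 peaks in 30 of the 31 flp loci. The read numbers of 145 of them could be recovered, and they summed to 7677 reads in dSm and 1378 in FL, or 1403 and 343 per 1000000 library reads. The ratio was 4.10-fold (interval 3.87 to 4.34). Peaks not higher in dSm could not be recovered, and the 3 left out were all of this kind. To that extent the ratio overstates the family's fold. It rests on peaks called in dSm, and no such sum was made over all genes. A read that spans abutting peaks can be counted in both, so these sums are not numbers of molecules and the intervals may be too narrow. When only the peak with the most reads was kept from each run of abutting peaks, a choice made after seeing the data, the lowest, median and highest fold over the 30 genes were 1.62, 4.16 and 7.86.

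By gene the fold ran from 1.62 to 7.93 with a median of 4.05, as the plot of reads by gene shows. A fold above 1 was fixed in advance, since only peaks higher in dSm entered the sums. The interval lay above 1 for 29 of the 30 genes and above 2 for 23. It held the fold of the whole family for 24 genes, so neighbours in that order mostly cannot be separated at this depth. The interval of flp-24 and flp-11 lay wholly above the family's fold, and that of flp-18, flp-6, flp-34 and flp-10 wholly below it. Reads were spread over many genes: the 8 best covered members held 66.1% of the dSm reads and flp-9, which had the most, held 11.4%.

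**Figure D1:**
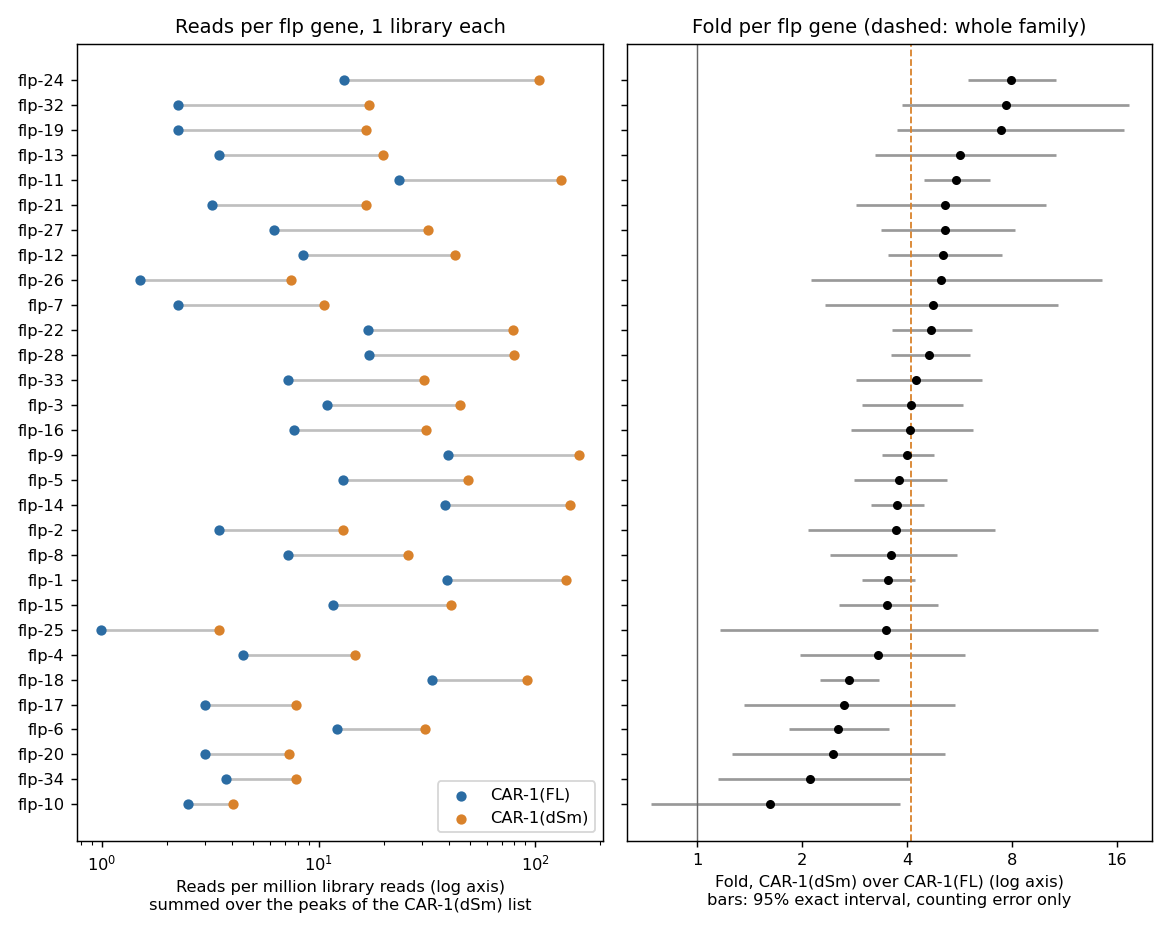
Left, reads per 1000000 library reads (log axis) summed over the dSm peaks of each flp gene in FL (blue) and dSm (orange), 1 library each. Right, the fold dSm over FL (log axis) with its 95% exact interval for counting error, and a dashed line at the family's 4.10-fold. The orange point lies to the right for all 30 genes by rule, as only peaks higher in dSm could be recovered and summed. The interval reaches 1 for flp-10 alone.

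Of the 148 dSm peaks 145 were higher in dSm, where over all loci 70.1% of the peaks of that list were. The FL list was called in the other library. Of its 83 peaks in flp loci, 81 were lower in FL, or 97.6%, against 49.7% of all peaks of that list. At least a 2-fold difference in that direction was found for 78 of the 83, or 94.0%, against 7.82% of the whole list. The median log2 fold of the flp peaks, dSm over FL, was 1.96 in the FL list and 1.94 in the dSm list. Over all peaks these medians were −0.01 and 0.36.

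Of the 25 flp genes with a peak in the FL list, 23 had every such peak lower in FL, against 13.9% of 11307 genes. The median of these peaks was at least 2-fold higher in dSm for 22 of the 25 genes, against 3.7% of all genes. The exceptions were flp-34, flp-20 and flp-10, whose FL lists held 1 peak each. The 2 peaks that were higher in FL lay in flp-34 (9 reads in FL against 7) and in flp-6 (10 against 12 in the deeper dSm library).

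**Figure D2:**
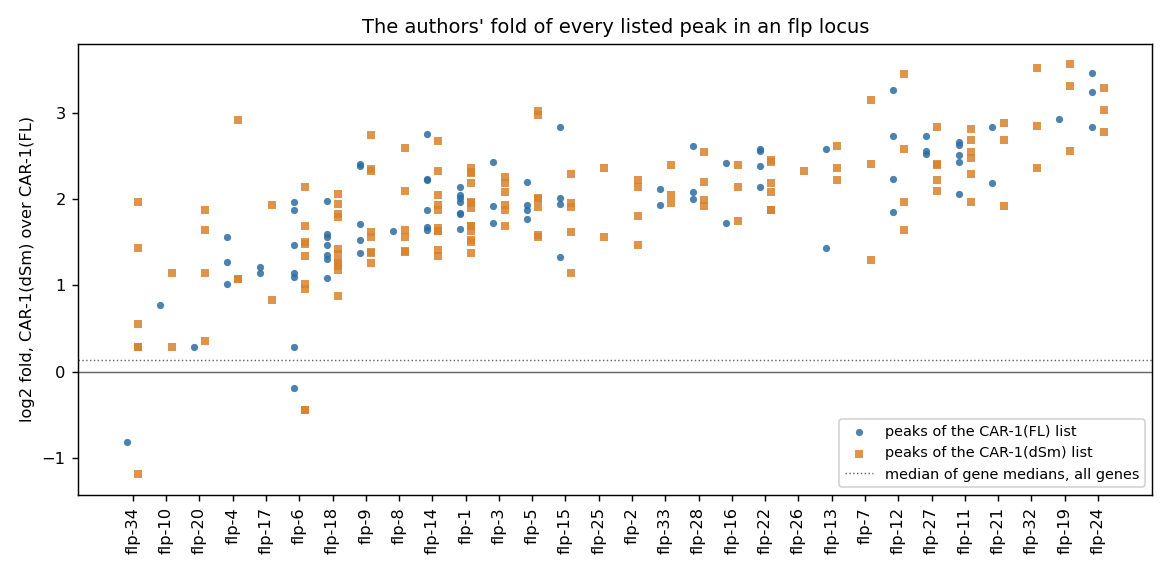
Log2 fold, dSm over FL, of every listed peak in the 30 flp loci with peaks, ordered by the gene's median. Blue circles are peaks of the FL list, orange squares those of the dSm list, and the dotted line is the median of gene medians over all genes, 0.14. Both lists sit well above the dotted line in nearly every gene, and points below 0 are seen in flp-34 and flp-6 only.

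Over all genes with at least 4 listed peaks in both lists together, the flp genes stood near the top of the order. Of 9604 such genes 25 were flp genes, and 17 of these were among the 100 genes with the highest median log2 fold. The highest of all 9604 was flp-24, followed by flp-19 at rank 2, flp-21 at rank 4, flp-11 at rank 8 and flp-27 at rank 10. A median of at least 2-fold was reached by 24 of the 25, against 8.02% of all genes, and flp-34 was the exception at rank 3323. All listed peaks were higher in dSm for 23 of the 25, against 9.07%. Past the stricter thresholds, an authors' −log10 p of 3 and an 8-fold difference, 4 of 30 flp genes had a dSm peak, or 13.3%, against 0.784% of genes. These were flp-24, flp-12, flp-19 and flp-32. No flp gene had an FL peak past them, where 0.0619% of genes did. With the fold lowered to 2, the number was 23 of 30 against 4.68%.

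Among the peptides known for promoting sleep, flp-24 showed the largest fold. The gene flp-24, which acts with flp-13 in the stress-induced sleep driven by the ALA neuron, spans III:725151-725951 (ce10). Its 3 dSm peaks held 572 reads in dSm and 53 in FL, a 7.93-fold difference (interval 5.98 to 10.7). The first peak from the 5′ side (III:725150-725197, plus strand) had 185 reads against 14, or 9.72-fold (interval 5.65 to 18.1). It abuts the second (III:725198-725240), with 155 against 14. The third lay near the other end of the locus (III:725835-725942), with 232 against 25 and the authors' −log10 p of 25.2. The 3 peaks of the FL list gave log2 folds of 2.83 to 3.46 in the same direction.

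The gene flp-11 encodes the peptides of the RIS neuron that bring on sleep (X:4677527-4678039, peaks on the minus strand). It had 717 reads in dSm and 95 in FL, or 5.55-fold (interval 4.47 to 6.95). Its peak with the highest −log10 p, 25.7, lay at X:4677595-4677668 with 244 reads against 28. All 11 listed peaks of the gene were higher in dSm, the 5 of the FL list by log2 folds of 2.06 to 2.65. The ALA peptide gene flp-13 was thinly covered, with 19.7 against 3.48 reads per 1000000 (5.67-fold, interval 3.24 to 10.7). The intervals of these 3 sleep genes overlap.

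Loss of flp-1 makes worms move in exaggerated, uncoordinated waves. This gene (IV:9144699-9145963, plus strand) had 757 reads in dSm and 158 in FL, or 3.52-fold (interval 2.96 to 4.21). Its 13 dSm peaks and 7 FL peaks were all higher in dSm. The strongest (IV:9144837-9144889) held 101 reads against 19. The arousal peptide gene flp-2 had no FL peak. In its 4 dSm peaks 71 reads stood against 14, or 3.73-fold (interval 2.08 to 7.16).

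The gene flp-18, whose peptides act on NPR-4 and NPR-5, had 500 reads in dSm and 135 in FL (X:3012407-3014268, minus strand). That is 2.72-fold (interval 2.25 to 3.32), with the interval below the family's fold, which includes the reads of flp-18. All 18 listed peaks of flp-18 were higher in dSm. The peak with the highest −log10 p, 4.48, had 58 reads against 12. The gene flp-21, whose peptide acts on NPR-1 in social feeding, had 91 against 13, or 5.15-fold (interval 2.86 to 10.03). For flp-15, with peptides that activate NPR-3, 224 reads stood against 47, or 3.50-fold (interval 2.55 to 4.91).

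The gene flp-34, which acts through NPR-11 in olfactory learning, had the lowest median over its listed peaks among the 25 flp genes with at least 4 of them, at 0.29 on the log2 scale. Its recovered dSm peaks held 43 reads against 15, or 2.11-fold (interval 1.15 to 4.08). A further dSm peak (V:1029711-1029762) was lower in dSm by 1.18 on the log2 scale and its reads could not be recovered, so the sum overstates the fold. The single FL peak of flp-34 overlaps it. Both lie near the middle of the locus, and the other 5 dSm peaks were higher in dSm.

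FLP-10 and FLP-17 both act on the receptor EGL-6, which holds back egg laying. For flp-10 there were 22 reads in dSm and 10 in FL, or 1.62-fold, and the interval of 0.74 to 3.83 includes no difference. For flp-17 there were 43 against 12, or 2.63-fold (interval 1.36 to 5.49). These genes were too thinly covered to set apart from most others.

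The genes flp-8, flp-10, flp-12 and flp-20 act together in the turning behaviour of mating males. Of these flp-12 had 234 reads against 34, or 5.06-fold (interval 3.52 to 7.48). Its most 5′ peak (X:4592236-4592322, minus strand) reached 10.9-fold (interval 4.46 to 34.5), with 74 reads in dSm and 5 in FL. That interval includes the fold of the whole gene. For flp-8 there were 142 against 29 (3.60-fold), and for flp-20, a gene of the touch receptor neurons, 40 against 12 (2.45-fold). The interval of flp-12 overlaps those of flp-8, 2.40 to 5.57, and flp-20, 1.26 to 5.13.

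FLP-7 signals from the brain to the intestine through NPR-22 to drive fat loss. For flp-7 there were 58 reads in dSm and 9 in FL, or 4.74-fold (interval 2.33 to 10.9), and no FL peak. FLP-6 links the AFD thermosensory neuron to lifespan. The gene flp-6 had 169 against 49, or 2.54-fold (interval 1.84 to 3.56), with 9 dSm and 7 FL peaks. Of these 16 peaks 3 were not higher in dSm, and the 2 of them in the dSm list, each 2 bases wide, were not recovered, so the sum overstates the fold as for flp-34.

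Several of the best covered members are named here by level rather than by role. The gene flp-9 (IV:12754791-12757479, minus strand) had 873 reads in dSm and 160 in FL, or 4.01-fold (interval 3.39 to 4.78). Its strongest peak (IV:12755888-12755947) held 221 against 32. The gene flp-14, whose locus overlaps F43D9.11, K07E8.14 and Y113G7A.20 (III:12910411-12914639, plus strand) followed with 789 against 155, or 3.74-fold (interval 3.15 to 4.48). The most 5′ peak of flp-14 (III:12910414-12910543) had 173 against 20, or 6.36-fold. For flp-28 there were 435 against 69 (4.64-fold), and for flp-22 there were 433 against 68 (4.68-fold). The intervals of these 4 genes all include the family's fold.

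High folds from few reads were found in flp-32 and flp-19. For flp-32 there were 94 reads in dSm and 9 in FL, or 7.68-fold (interval 3.88 to 17.3). Its peak past the thresholds (X:15434457-15434525) held 31 reads against 2. The corresponding numbers for flp-19 were 91 and 9, or 7.43-fold (interval 3.75 to 16.8), with 27 against 2 in its peak past the thresholds (X:10605036-10605100). Both intervals include the family's fold. The gene flp-26 had a single peak with 41 reads against 6. Of the other members, flp-3, flp-4, flp-5, flp-16, flp-25, flp-27 and flp-33 lay between 3.31-fold and 5.15-fold, from 19 reads in dSm for flp-25 to 269 for flp-5. The gene flp-23 had no peak in either list and an FPKM listed at 0 in both libraries.

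Along the loci the size of the fold was compared between parts. Only peaks higher in dSm could be recovered, so an excess in every part was fixed by that rule. All listed peaks of a gene lay on 1 strand, in each of the 30 genes, and that strand was used to set the 5′ end. Peaks in the 5′-most of 3 equal parts of the loci held 2767 reads in dSm and 449 in FL, or 4.53-fold (interval 4.10 to 5.02). The middle part gave 4.14-fold (interval 3.63 to 4.74) and the 3′ part 3.78-fold (interval 3.48 to 4.12), from 1487 against 264 and from 3423 against 665 reads. By summed reads the fold was thus highest in the 5′ part and lowest in the 3′ part, where the intervals barely overlap. The median log2 fold of single peaks did not follow that order, at 1.97, 2.14 and 1.94 from the 5′ to the 3′ part. These peaks came from 26, 17 and 28 genes, and the difference between the parts was not tested. The range of log2 folds over the single peaks of a gene with at least 4 listed peaks had a median of 1.10, counting error included.

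Where dSm had a peak, FL often had one as well. An overlap of at least 1 base with a peak of the other list was found for 92.8% of FL peaks and 64.9% of dSm peaks in flp loci. The fold was 4.07 (interval 3.82 to 4.33) at dSm peaks that overlap an FL peak and 4.25 (interval 3.67 to 4.94) at those that do not. The lists held 148 and 83 flp peaks in dSm and FL, beside 105255 and 77986 peaks in all, and dSm was 1.36 times as deep. The part of depth in the number of peaks was not tested.

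**Figure D3:**
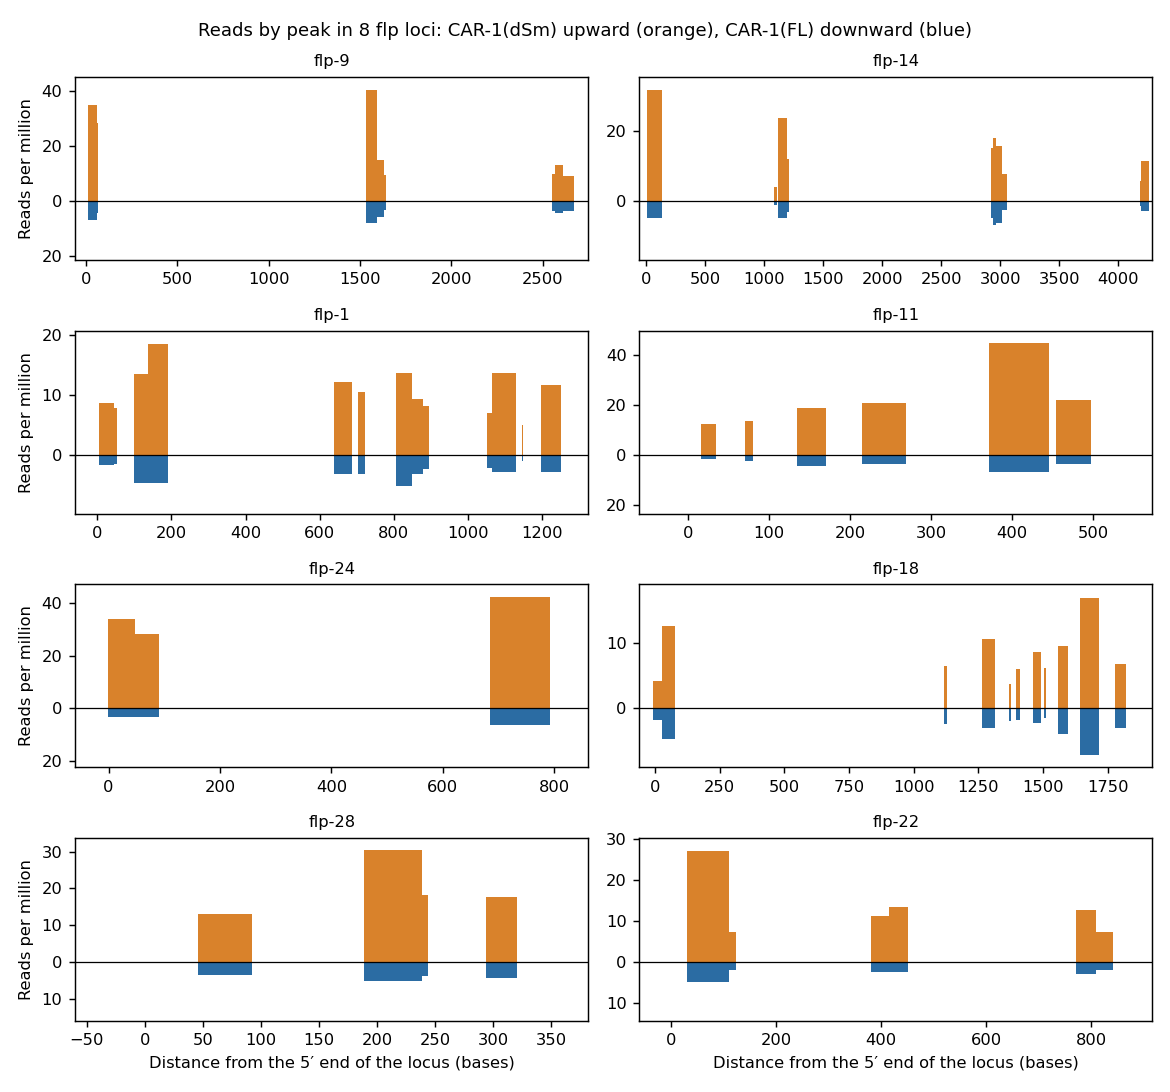
Reads per 1000000 library reads in each peak of the dSm list, by distance in bases from the 5′ end of the locus, for the 8 flp genes with the most reads. Orange bars upward are dSm, blue bars downward are FL, and the width of a bar is that of the peak. The same peaks carry reads in both libraries. Only peaks higher in dSm could be recovered and drawn, so the orange bar is the longer one by that rule. All listed dSm peaks of these 8 genes were higher in dSm, so none was left out.

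Several flp loci lie inside or across other gene loci, where reads of either gene could be counted. The genes flp-28, flp-3 and flp-2 lie next to each other inside the locus of W07E11.1 on chromosome X. All their peaks are on the minus strand, whereas the locus of W07E11.1 also held 51 plus-strand peaks of the dSm list, none of them inside an flp locus and with a median log2 fold of 0.78. Outside the flp genes the locus held 2 minus-strand dSm peaks, with a median of 1.92. The 3 flp genes gave 4.64-fold, 4.11-fold and 3.73-fold. The gene flp-1 lies inside the locus of daf-10, for which the dSm list held 4 minus-strand peaks, all outside flp-1, and 2 plus-strand peaks outside it with a median log2 fold of 1.94. Such same-strand peaks had folds like those of the flp genes, and the gene they come from was not tested. For the 22 flp genes that overlap no other locus, the family's fold was 4.22 (interval 3.93 to 4.54), and for the 9 others it was 3.86 (interval 3.51 to 4.26). Members on the X chromosome and on autosomes had overlapping intervals: 13 members on X gave 4.18-fold (interval 3.80 to 4.60) and 18 on autosomes 4.05-fold (interval 3.76 to 4.36).

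The expression tables gave the same direction from far fewer fragments. FPKM scales fragments by transcript length and library size, and the authors' bounds imply how many fragments stand behind a value. For all 31 genes together there were 22.4 implied fragments in FL and 120 in dSm, not scaled for depth. Over all genes there were 233959 in FL and 369072 in dSm. The flp sums were far below the reads in the peaks, and the reason was not tested. Of all 41560 gene names, 32860 were listed at an FPKM of 0 in FL and 31731 in dSm. The FPKM of 17 of the 31 flp genes was listed at 0 in FL and that of 11 in dSm, 8 of them in both. A listed 0 did not mean that reads were missing: those 8 loci held 592 reads in dSm and 120 in FL in their peaks, flp-5 the most.

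By FPKM, flp-24 was the highest member and flp-14 the next in dSm. The FPKM of flp-24 was 58.6 in dSm, with bounds of 28.05 and 89.1, and 5.99 in FL, with bounds of 0 and 17.97. For flp-14 it was 21.4 (bounds 14.7 and 28.2) against 5.61 (bounds 1.37 and 9.85), or 3.82-fold from 40 and 7 implied fragments. The intervals of both genes lay apart, and flp-14 was the only member whose interval stayed above 0 in FL. The gene flp-28 stood at 14.1 and 10.8 with overlapping intervals. In dSm flp-26 and flp-11 stood at 11.9 and 8.46 with intervals above 0, and both were listed at 0 in FL with bounds of 0. Counting these, intervals lay apart with dSm higher for 4 of the 21 flp genes with an FPKM of 1 or more in some library. That was so for 3.03% of the 4361 such genes. Intervals apart with FL higher were found for 0 flp genes and for 123 of the 4361. The intervals of flp-22, flp-6 and flp-7 overlapped between the libraries, at 8.74, 3.46 and 2.87 in dSm against 2.23, 1.18 and 0.551 in FL. Neighbours in the order of FPKM in dSm, flp-24 and flp-14 included, had overlapping intervals.

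An FPKM of 1 or more in some library was found for 21 flp genes, of which 12 were higher in dSm by 1 log2 unit or more, 3 in FL, and 6 lay within 1 unit. Over all 4361 such genes 15.2% were higher in dSm and 14.3% in FL. Their median difference on the log2(FPKM + 1) scale, FL minus dSm, was −1.12 for the flp genes and 0.07 for all genes. The 3 members higher in FL were flp-3, flp-15 and flp-27, each listed at 0 in dSm and resting on at most 1.99 implied fragments in FL. Their peaks went the other way, at 4.11-fold, 3.50-fold and 5.15-fold higher in dSm with 175 to 246 reads there. The authors' deposited table, which tests 1 library against 1, marked none of the 19 flp genes it tested as significant. Without replicates, and with no share over all genes beside it, this cannot be read as a result about flp genes.

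**Figure D4:**
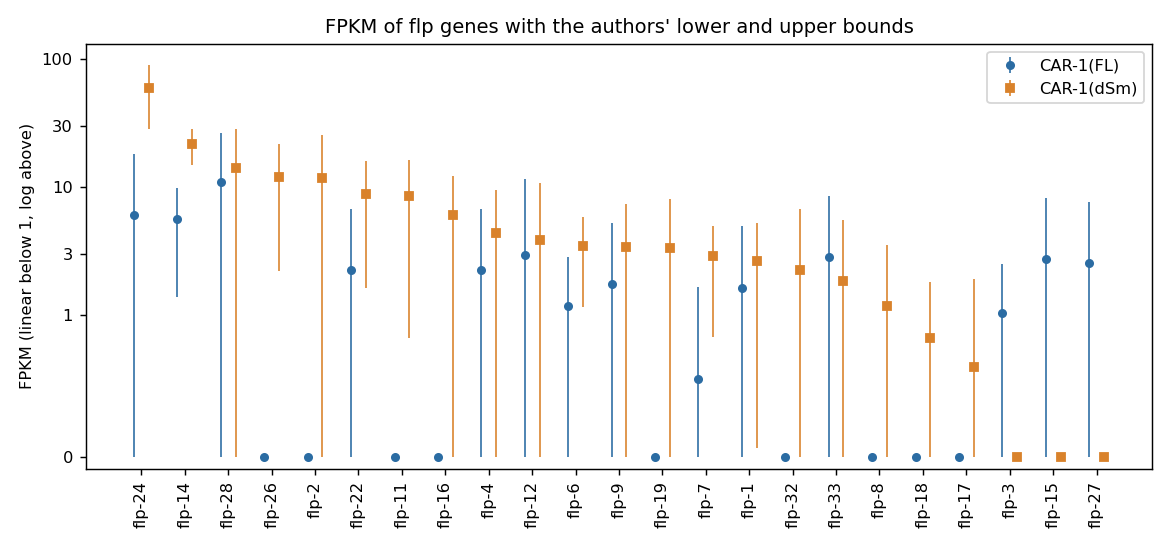
FPKM (linear below 1, log above) of the 23 flp genes listed above 0 in either library, with the authors' lower and upper bounds, FL in blue and dSm in orange. Bounds of both libraries lie apart for flp-24 and flp-14, and for flp-26 and flp-11, whose bounds in FL are both 0. Points on the 0 line are listed at 0, where the bounds are also 0.

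By listed peaks, other steps of the neuropeptide pathway had medians toward dSm to differing degrees. The peptide genes closest to the family are the nlp genes outside nlp-24 to nlp-34, which encode neuropeptides of other kinds. Their gene medians gave a median of 3.15-fold over the 23 with at least 4 listed peaks, beside 3.83-fold for 25 flp genes and 1.10-fold for all genes. Of these nlp genes 20 reached a median of 2-fold. The strongest peak of nlp-13 held 192 reads in dSm and 20 in FL, and that of nlp-15 held 109 and 16. The genes nlp-24 to nlp-34, many of which encode antimicrobial peptides of the epidermis, did not share this. Their median was 0.768-fold over 9 genes, none reached 2-fold, and the FPKM of nlp-24 was 88.6 in dSm against 193 in FL with intervals apart. The FPKM of nlp-29 was 3.19 in dSm, with an upper bound of 9.57, and 44.0 in FL, with a lower bound of 14.7. These values rest on 1 implied fragment in dSm and 9 in FL. The listed peaks of nlp-29 had a median log2 fold, dSm over FL, of only −0.14.

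The machinery that cuts, amidates and releases peptides had a median of 2.39-fold over 18 genes, of which 10 reached 2-fold. The convertase gene egl-3 led with a gene median log2 fold of 2.36, and its strongest peak held 305 reads against 21. The amidation gene pghm-1 had a peak with 117 against 10, and unc-31, which is needed for the release of dense-core vesicles, had one with 40 against 3. The vesicle protein gene ida-1 stood at an FPKM of 5.59 in dSm and 2.83 in FL with intervals apart, as did the release factor gene unc-13 at 2.0 and 0.858 and egl-3 at 2.88 and 0.860. By FPKM 1 of the 12 measured genes of this list was higher in dSm by 1 unit or more, a lower share than the 15.2% of all genes, and none in FL.

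Receptors of FMRFamide-like peptides were poorly covered, with 8.06 and 19.5 implied fragments over 22 genes and no FPKM of at least 1. Their gene medians gave 1.8-fold over 19 genes, but the FL peaks alone gave a median log2 fold of −0.075 over 15 genes. Insulin-like peptide genes had 1.67-fold over 6 genes, and −0.18 on the log2 scale from the FL peaks alone over 11. Their member ins-24 had a peak with 49 reads in dSm and 2 in FL, and its FPKM was listed at 0 in FL. No test of the differences between these lists was possible with 1 library per form.

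**Figure D5:**
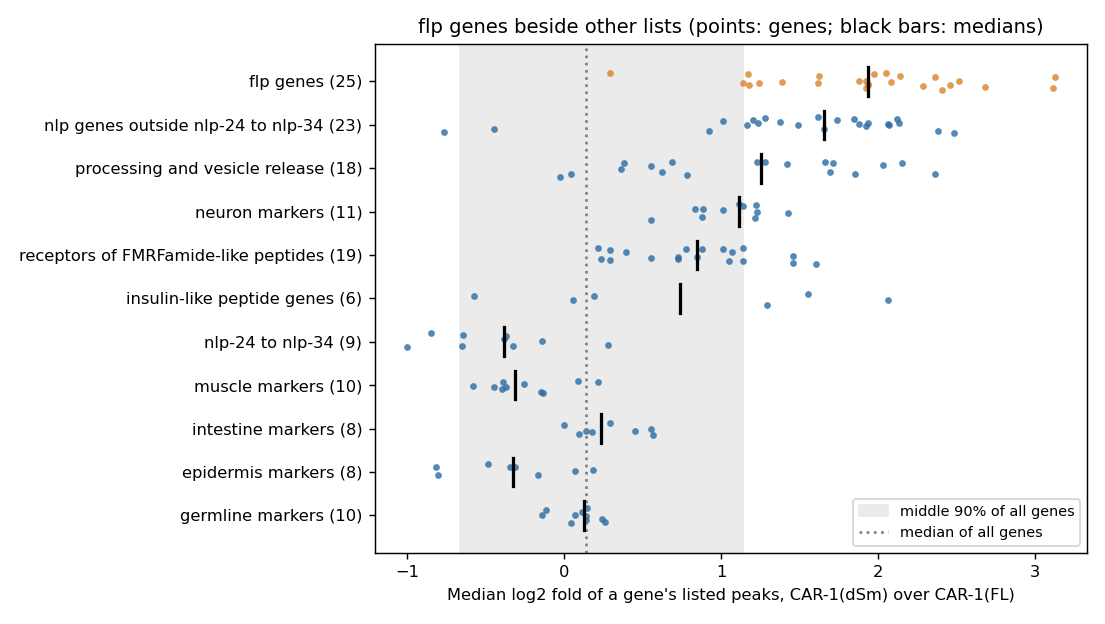
Median log2 fold of a gene's listed peaks, dSm over FL, by gene list (number of genes in brackets). Genes shown have at least 4 listed peaks in the FL and dSm peak lists together. Points are genes, black bars are medians of the list, the grey band is the middle 90% of all genes and the dotted line their median, 0.14. The flp genes (orange) have the highest median, 1.94, with flp-34 well inside the grey band, and muscle, epidermis and germline markers lie around the dotted line or below it.

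By listed peaks, general neuron markers stood in the same direction as the flp genes, with a lower median. Of 12 markers, 11 had at least 4 listed peaks, with a median of 2.16-fold, and 7 of these reached 2-fold. The FPKM of the 12 summed to 5.07 in FL and 13.3 in dSm, with rgef-1 and ric-4 listed at 0 in both. By FPKM the markers went both ways. With intervals apart, unc-104, an axonal kinesin gene, stood at 1.19 in dSm against 0.356 in FL. So did unc-13, which is also in the list of processing and release genes, at 2.0 against 0.858. The marker snb-1 stood at 4.74 against a listed 0, though its strongest peak held 96 reads in dSm and 32 in FL. The markers unc-10, ric-19 and unc-18 were lower in dSm, at 0.180, a listed 0 and 1.64 against 0.305, 0.166 and 1.83 in FL, with overlapping intervals or a listed 0. The strongest peak of unc-18 held 35 reads in dSm and 3 in FL. Markers of other tissues lay near or below no difference, at 0.804-fold for 10 muscle genes, 1.18-fold for 8 intestine genes, 0.797-fold for 8 epidermis genes and 1.09-fold for 10 germline genes, and none of those 36 genes reached 2-fold. Summed FPKM in FL and dSm stood at 81.8 and 71.6 for muscle, 139 and 104.1 for epidermis, 381 and 393 for intestine and 66.2 and 64.8 for germline. Intervals lay apart for the muscle gene unc-89 (3.11 in dSm and 5.24 in FL), the collagen gene dpy-13 (25.7 and 37.4) and the yolk protein genes vit-6 (128 and 146) and vit-2 (138 and 124). What part neuronal RNA content had in the flp values was not tested.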

How the data were processed

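Sequenced were 2 seCLIP-seq libraries, CAR-1(FL) (FL) and CAR-1(dSm) (dSm). Per the submitters' processing notes the tools were UMI-tools, cutadapt, STAR and SAMtools on build ce10. The authors deposited 1 peak list per library, with the −log10 of a p-value (0 where the fold is not positive) and a log2 fold over the other library, FPKM tables with bounds in Cufflinks layout per the file headers, and a Cuffdiff-layout table with p-values and q-values. The sources used here name no peak caller and no versions.

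Computed here with Python 3.11.15 and scipy 1.17.1: a peak belongs to a locus it overlaps by 1 base, and start coordinates are 1-based. Folds equal ratios of whole numbers shifted by the ratio of library totals, which gave both totals. Whole numbers were then tried under Fisher's exact test (a number below 5) or a Yates-corrected chi-square until −log10 p matched within a relative 0.0001. This gave 1 answer for 94.8% and 100% of 1000 drawn peaks with a positive fold of the FL and dSm lists. A number of 1 can stand for 0 (4 flp peaks). Peaks of the dSm list without a positive fold carry no p and could not be recovered. Since 81 of the 83 FL peaks carry no p, reads of both libraries were summed over dSm peaks, a departure from the plan of using each library's own list. Implied fragments follow from bounds taken to lie 2 standard errors from the FPKM. Gene-level medians use loci of at most 100000 bases. No test between forms was made, and depth limits precision to the intervals given.

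Full values were given for flp genes with a peak past both thresholds (−log10 p 3, log2 fold 3), at least 5 implied fragments, or the 8 highest read sums. In pathway lists, genes past those thresholds or with intervals apart were named, at most 6 a list. Markers of other tissues with intervals apart are also named, chosen after their values were seen. Members, lists and rules were chosen with earlier results of these data known. The recovery was tested on simulated data. Strand-restricted peaks were not analysed here, because no strand of the genes was at hand.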

Additional observations from a re-analysis of the deposited data

How the results depend on the processing

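No paired analysis was possible because each form has 1 library. The flp median stayed toward dSm under all alternatives run. For peak reads that direction was fixed in advance, as only peaks higher in dSm could be recovered. By listed peaks it ranged from 1.94 to 2.0 on the log2 scale. By peak reads the 4.10-fold became 3.53-fold when scaled by implied fragments on genes, 5.33-fold with 1 peak per gene chosen by −log10 p, which favours high folds, and 4.11-fold without flp-9. With 1 peak per gene 7 genes moved outside their interval, all upward. By FPKM the median of −1.12 became −0.45 with a pseudocount of 5 and −1.91 with 0.1, and −2.95 over 8 genes at an FPKM of at least 5, where the members at least 1 unit higher were 7 in dSm and 0 in FL. With a pseudocount of 5 they were 6 and 0. Members with a peak past the thresholds were 23 rather than 4 at a log2 fold of at least 1. For pathway lists by FPKM, a pseudocount of 5 gave −0.22 for processing and release (−0.48 as reported in the tables) and −0.41 for the nlp genes outside nlp-24 to nlp-34 (−1.31). These nlp genes gave −3.79 with a pseudocount of 0.1 and −2.24 with the FPKM of the authors' deposited table. Insulin-like genes turned from −0.21 to 0.17 over 3 genes at an FPKM of at least 5. From FL peaks alone the receptors turned from 0.85 to −0.075 and insulin-like genes from 0.74 to −0.18. The causes were not tested. The choices of 1 list, 1 peak per gene and 1 peak per run were added after seeing the data. Sums over each library's own list and own-strand peaks were not run. Depth leaves single genes with few reads, such as flp-10 and flp-25, with wide intervals.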
